A study of Mus musculus with 4 samples.

Results

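Vwf-high endothelial cells are lung endothelial cells in which the transcript of von Willebrand factor was counted several times per cell. They were chosen from single-cell counts of unique molecular identifiers (UMIs, 1 per captured transcript) by a fixed rule. A barcode needed 300 or more genes with a UMI and a mitochondrial share of no more than 10%. It needed at least 1 UMI of Cdh5, the adhesion protein of endothelial junctions, and at least 3 UMIs of Vwf. At most 1 UMI of Pdgfra and Npnt together, genes of fibroblasts and alveolar epithelium, and at most 3 of C1qa, C1qb and C1qc, genes of macrophages, were allowed. The rule found 349 of 16350 barcodes. They were 2.21% of the 15793 barcodes that passed the filters on genes and mitochondrial share, and 16.7% of the 2085 barcodes that passed the same gate without the threshold on Vwf, called endothelial cells below. LAIR1KO tumor-bearing lungs held 73 of them, LAIR1KO normal lungs 121, WT tumor-bearing lungs 88 and WT normal lungs 67.

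The study compared lungs of mice labelled LAIR1KO, which lack the collagen-binding inhibitory receptor of leukocytes, with lungs of wild-type (WT) mice. In each genotype one group bore B16/F10, a mouse melanoma line, and the other had no tumor. Each of the 4 groups was a single 10x Genomics 3' library that pooled 3 animals marked with hashtag antibodies, so group and library cannot be told apart, and the animal was the replicate. The labels give no age, no sex and no way in which the receptor was removed.

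Von Willebrand factor is a large adhesive protein that endothelial cells store in Weibel-Palade bodies, rod-shaped granules that also hold P-selectin. Released, it binds platelets at sites of injury, while P-selectin lets leukocytes roll along the vessel wall. In the lung, arteries and veins are known to hold more of it than the capillaries around the air spaces, where general capillary cells and the aerocytes of gas exchange are the main endothelial types.

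An animal could be named for the 187 Vwf-high cells with a single hashtag, 6 to 56 per animal. Another 131 carried more than 1 hashtag and 31 none, and Scrublet, a caller of doublets, marked 7. Vwf-high cells were deeper than the other 1736 endothelial cells, with a median of 6944 against 4531 UMIs. By library the median was 4714 in LAIR1KO tumor-bearing, 9202 in LAIR1KO normal, 5383 in WT tumor-bearing and 8848 in WT normal lung. A threshold in UMIs is easier to pass in a deep cell, so shares below are also given after thinning cells to 1 depth. Of all barcode sequences, 30 occurred in more than 1 library, and 1 Vwf-high cell had such a barcode. In Vwf-high cells of the 9 animals of the LAIR1KO and the WT tumor-bearing groups, Xist, the transcript behind X inactivation, stood at 821 to 1811 counts per 1000000 UMIs (CPM), and Ddx3y, a Y-linked helicase, at 0. The 3 WT normal animals had 0 CPM of Xist and 145 to 233 CPM of Ddx3y. Sex therefore cannot be told apart from the tumor in WT and from the genotype in normal lung. The interaction of tumor and genotype includes WT normal lung and has the same limit.

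The label was checked against genes that the rule did not use. Pecam1, an adhesion protein of all endothelium, had a UMI in 341 of the 349 cells and Cldn5, a tight junction protein, in 319. Vwf itself was rare in cells outside the endothelium: 1.54% of 195 B cells (Cd79a at least 2 UMIs, Cdh5 at 0; median 2295 UMIs) had any Vwf UMI. In the same B cells 0 had 3 UMIs, which allows a share of up to 1.54%. Of 3496 neutrophils (median 1836 UMIs) 2 had 3 or more, and of 2678 macrophages (median 5424 UMIs) 1 did. Platelets and megakaryocytes also make von Willebrand factor. Their 6 marker genes summed to 0.462 UMIs per 10000 in Vwf-high and 0.438 in other endothelial cells. Pf4 had a UMI in 10.3% of Vwf-high and 11.7% of other endothelial cells, and Ppbp in 2.01 and 2.42%. Itga2b was in 3.73 and 2.77%, and Treml1 in 0.860 and 0.461%. Gp9 and Gp1bb, which help to form the platelet receptor for the protein, were in 1.15 and 0.287% of Vwf-high cells. In other endothelial cells these 2 genes were in 0.807 and 0.173%. Of lymphatic genes, Ccl21a, the lymphatic chemokine, was in 0 cells and Prox1, the lymphatic master regulator, in 6, while Lyve1, which other endothelium also makes, was in 305. Of 5 melanoma genes, Pmel, which encodes a melanosome protein, Mlana and Tyrp1 were in 0 cells, Tyr in 2 and Dct in 1.

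The name of larger vessel cells held for part of the 349. Endothelial cells were sorted by their Vwf UMIs, at 0, 1 to 2, 3 to 4, 5 to 9, 10 to 19 and 20 or more, in bins of 1322, 414, 103, 84, 63 and 99 cells. Slc6a2, the noradrenaline transporter that marks lung veins in mice, had a UMI in 0.227, 2.90, 7.77, 22.6, 55.6 and 81.8% of cells in that order. Vcam1, an adhesion protein for leukocytes, was in 6.88, 9.90, 14.6, 26.2, 58.7 and 88.9% of cells. Both were more frequent in each higher bin. The median depth in the same order was 4029.5, 5956.5, 7274, 6643, 5396 and 8769 UMIs, lowest in the first bin and highest in the last. The part of depth in these shares was not tested. Kit, the stem cell factor receptor of general capillary cells, went the other way above the threshold, in 57.9, 83.3, 85.4, 73.8, 44.4 and 26.3% of cells. Gpihbp1, the capillary anchor of lipoprotein lipase, was in 58.7, 86.5, 87.4, 83.3, 63.5 and 60.6%. Cells of 3 to 4 Vwf UMIs thus resembled those of 1 to 2 more than those of 20 or more in these genes. Just outside the threshold, at exactly 2 Vwf UMIs, 4.44% of 135 cells had Slc6a2, 88.2% Kit and 10.4% Vcam1. Just inside it, at exactly 3, 7.46% of 67 cells had Slc6a2, 86.6% Kit and 11.9% Vcam1. These shares describe the cells and carry no test, because Vwf set the bins.

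**Figure D1:**
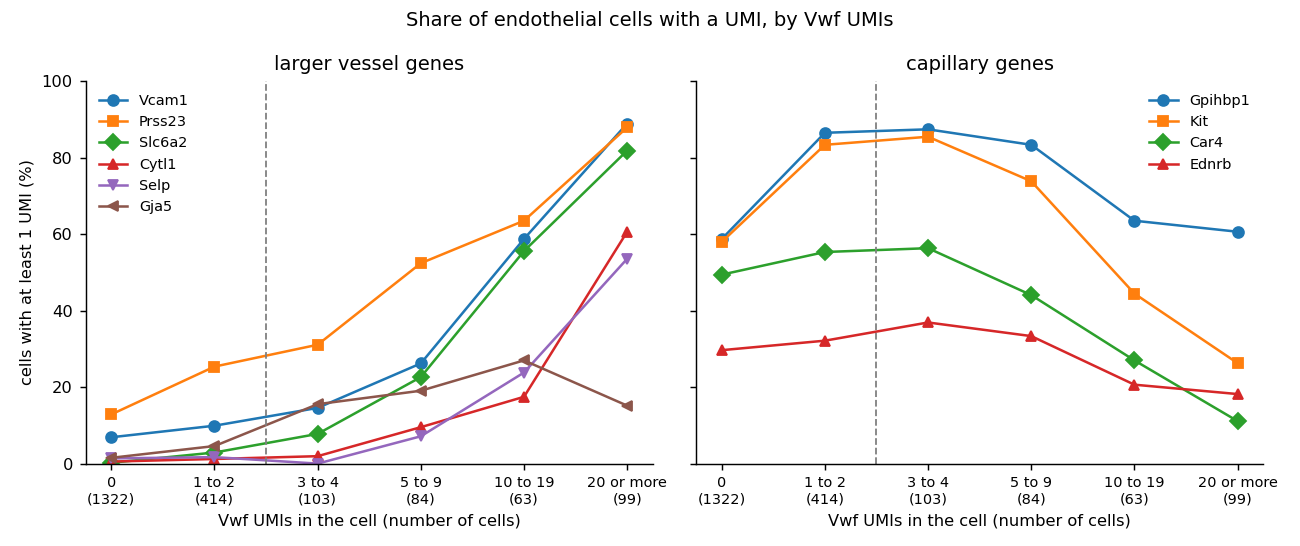
Percent of endothelial cells with at least 1 UMI of a gene (vertical axis) by the number of Vwf UMIs in the cell (horizontal axis), with the threshold of 3 UMIs marked. Slc6a2, Selp, Vcam1 and Cytl1 climb to 81.8, 53.5, 88.9 and 60.6% in the bin of 20 or more, while Kit drops to 26.3%.

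Gja5, the gap junction protein of arterial endothelium, was in 1.51, 4.59, 15.5, 19.1, 27 and 15.2% of cells over the same bins, and so peaked below the top. Selp, which encodes P-selectin, was in 1.36, 1.69, 0, 7.14, 23.8 and 53.5%, and Cytl1, a secreted cytokine-like protein, in 0.530, 1.21, 1.94, 9.52, 17.5 and 60.6%. Selp and Cytl1 were frequent in the last bin and rare below 5 UMIs.

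Clustering the 349 cells on their own gave 7 sub-clusters, described here without a test because the same counts formed them. Sub-cluster 2, with 62 cells and a median of 24.5 Vwf UMIs, is called venous-like. The venous markers Slc6a2, Amigo2, Prss23 and Car8 were among its 10 leading genes, and Slc6a2 had a UMI in 98.4% of its cells (2336 CPM). Sub-cluster 4, with 46 cells and a median of 31 Vwf UMIs, had Sfrp1, Selp, Cytl1 and Cpe among its leading genes. Its cells also had 2146 CPM of Ptgs2, the inducible cyclooxygenase, and 2983 CPM of Icam1, the ligand of leukocyte integrins, and all of them had Vcam1. With 2 venous markers and 1 arterial marker among its leading genes it stays unnamed, but Slc6a2 was in 80.4% of its cells. Sub-cluster 6, with 30 cells and a median of 18 Vwf UMIs, had Gja5 in 80% of cells (569 CPM), 767 CPM of Plat, the tissue plasminogen activator, and 0 UMIs of Slc6a2. Gja5 was the only arterial marker among its 10 leading genes, so it too is left unnamed. These 3 sub-clusters held the highest median Vwf counts.

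The other sub-clusters lay near the threshold or were led by genes of other cells. Sub-cluster 1 was the largest, with 89 cells and a median of 5 Vwf UMIs. Kit was in 88.8% and Gpihbp1 in 91.0% of its cells, and Slc6a2 in 8.99%. Its leading genes by fold were immune (Ccl17, Igkc, Ly6d and Chil3), the Ccl17 UMIs all from 1 cell, and it stays unnamed. Sub-cluster 3, with 58 cells and a median of 5 Vwf UMIs, is called aerocyte-like, because Chst1, Fibin, Ednrb, Tbx2 and Car4 were among its 10 leading genes. Sub-cluster 5, with 45 cells, was led by surfactant genes, with 12147 CPM of Sftpc, and 27 of its cells carried more than 1 hashtag. Sub-cluster 7, with 19 cells, was led by the neutrophil genes S100a8 (27608 CPM), Retnlg and S100a9. More than 1 hashtag was found in 17 of its cells, and Scrublet marked 7. Neither sub-cluster 5 nor sub-cluster 7 is given a name. More than 1 hashtag was also found in 39 of 89 cells of sub-cluster 1 and 25 of 58 of sub-cluster 3. In sub-clusters 2, 4 and 6 it was found in 10 of 62, 8 of 46 and 5 of 30 cells. The share was 37.5% of all Vwf-high and 35.0% of other endothelial cells. The part of doublets in any sub-cluster was not tested.

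**Figure D2:**
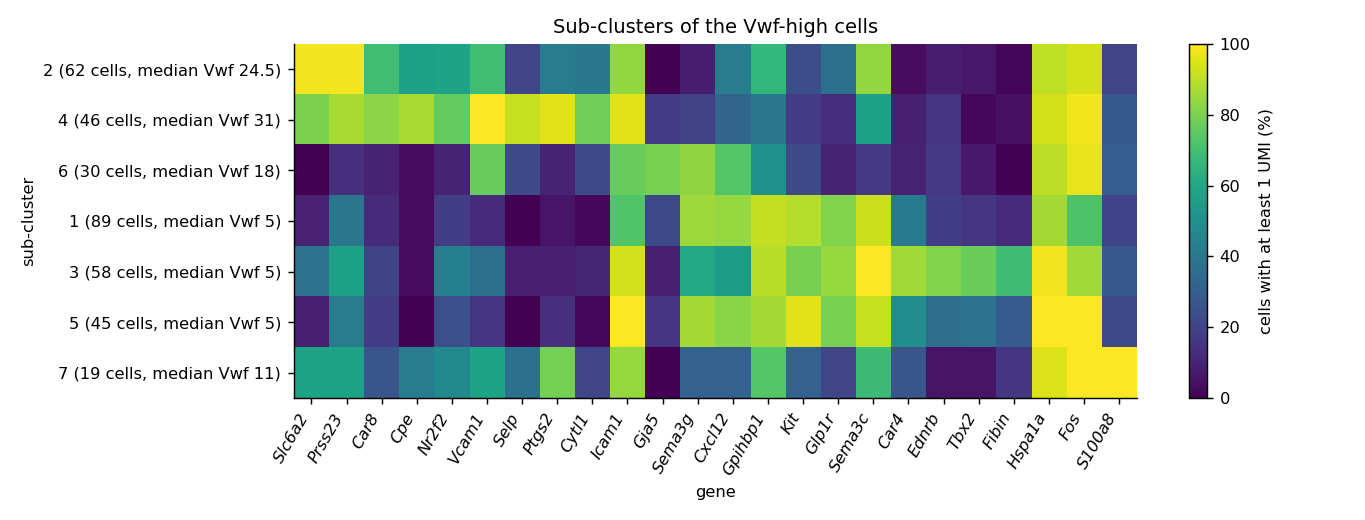
Percent of cells with at least 1 UMI of marker genes in the 7 sub-clusters of Vwf-high cells, with the number of cells and the median number of Vwf UMIs of each. Slc6a2 is in 98.4% of sub-cluster 2, Selp in 91.3% of sub-cluster 4 and Gja5 in 80% of sub-cluster 6. Kit is in 88.8, 79.3 and 95.6% and Gpihbp1 in 91.0, 89.7 and 86.7% of sub-clusters 1, 3 and 5.

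A score set arterial against venous transcripts within the Vwf-high cells. A cell was arterial-leaning when its UMIs of Gja5, Gja4, Sox17, Hey1, Bmx, Efnb2 and Dkk2 together exceeded those of Slc6a2, Nr2f2, Ackr1, Selp, Bst1, Car8 and Ephb4, and venous-leaning when they were fewer. This split 185 arterial-leaning from 152 venous-leaning cells, with 12 tied. It is a range and not a pair of types, since 39 cells lay within 1 UMI of the tie. Vwf stood at 1087 CPM in arterial-leaning and 3563 CPM in venous-leaning cells. Of genes the score did not use, Sema3g, a semaphorin of arterial endothelium, had 546 CPM in arterial-leaning and 39.4 CPM in venous-leaning cells. Plat had 187 and 18.0 CPM, and Esm1, the proteoglycan endocan, had 82.9 CPM in arterial-leaning cells and 0 UMIs in venous-leaning ones. On the venous side, Prss23, a serine protease, had 67.2 CPM in arterial-leaning and 1337 CPM in venous-leaning cells, and Ptgs2 67.2 and 1152 CPM. Ch25h, a cholesterol hydroxylase, had 9.14 and 357.5 CPM, and Vcam1 361 and 1240 CPM. Capillary transcripts went with the arterial-leaning side. Gpihbp1 had 589 CPM in arterial-leaning and 253 CPM in venous-leaning cells, and Kit 429 and 148 CPM. Of the arterial-leaning cells 75 lay in sub-cluster 1, 32 in sub-cluster 3 and 37 in sub-cluster 5, each with a median of 5 Vwf UMIs. Sub-cluster 6, where Gja5 was in 80% of cells, held 29. Sema3g stood at 560 CPM in sub-cluster 1 and 797 CPM in sub-cluster 6. The arterial-leaning side thus holds many cells near the Vwf threshold and is no count of arterial cells. Ackr1, the atypical chemokine receptor of venules, was seen in 6 cells, all of them venous-leaning.

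The next question was which genes set Vwf-high cells apart from the capillary cells of the same animal. General capillary cells are here endothelial cells with at most 2 Vwf UMIs, at most 2 of Car4 and Ednrb together, the aerocyte genes, and at least 1 of Gpihbp1. There were 753 of them. UMIs were summed per animal and class over cells with a single hashtag, and all 12 animals entered with the animal as a block. Genes used by either gate were left out. A gene could pass the filter on low counts through the Vwf-high sums alone, so counts of genes that rose are no measure of all genes. With an adjusted p under 0.05 as the threshold, 135 of 1933 genes were higher in Vwf-high than in general capillary cells (6.98%) and 128 were lower (6.62%).

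Genes for the capture of leukocytes were among those that rose, by very different amounts. Selp had 177, 306 and 1548 CPM as the lowest, median and highest animal of Vwf-high cells, against 0, 0 and 14.7 CPM in general capillary cells. Every animal was higher in its Vwf-high cells (edgeR, adjusted p = 3.6e-16). In all there were 536 against 3 UMIs, which is 258 times as much per UMI of the class (95% counting interval from 87.8 to 1255). That interval is of UMIs pooled over animals and leaves out the spread between animals. Only LAIR1KO tumor-bearing animal 2 had Selp UMIs in its general capillary cells. Vcam1 had 563, 922 and 1974 CPM in Vwf-high cells, against 0, 14.9 and 46.6 CPM in general capillary cells, a log2 difference of 6.0 ± 0.23 (SE; adjusted p = 9.8e-16). The ranges of the 12 animals did not overlap for either gene. Icam1, which was plentiful in both classes, had 729, 1522 and 2699 CPM in Vwf-high cells, against 362, 598 and 869 CPM in general capillary cells (log2 1.44 ± 0.13, adjusted p = 1.8e-08). It was higher in 12 of 12 animals. Jam2, a junctional adhesion molecule, was higher by 1.14 ± 0.20 log2 units (adjusted p = 2.7e-04). Of 15 genes of leukocyte adhesion 10 were measured, and these 4 rose and 0 fell, with a median log2 difference of 0.36 over the 10 and −0.01 over all genes tested.

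**Figure D3:**
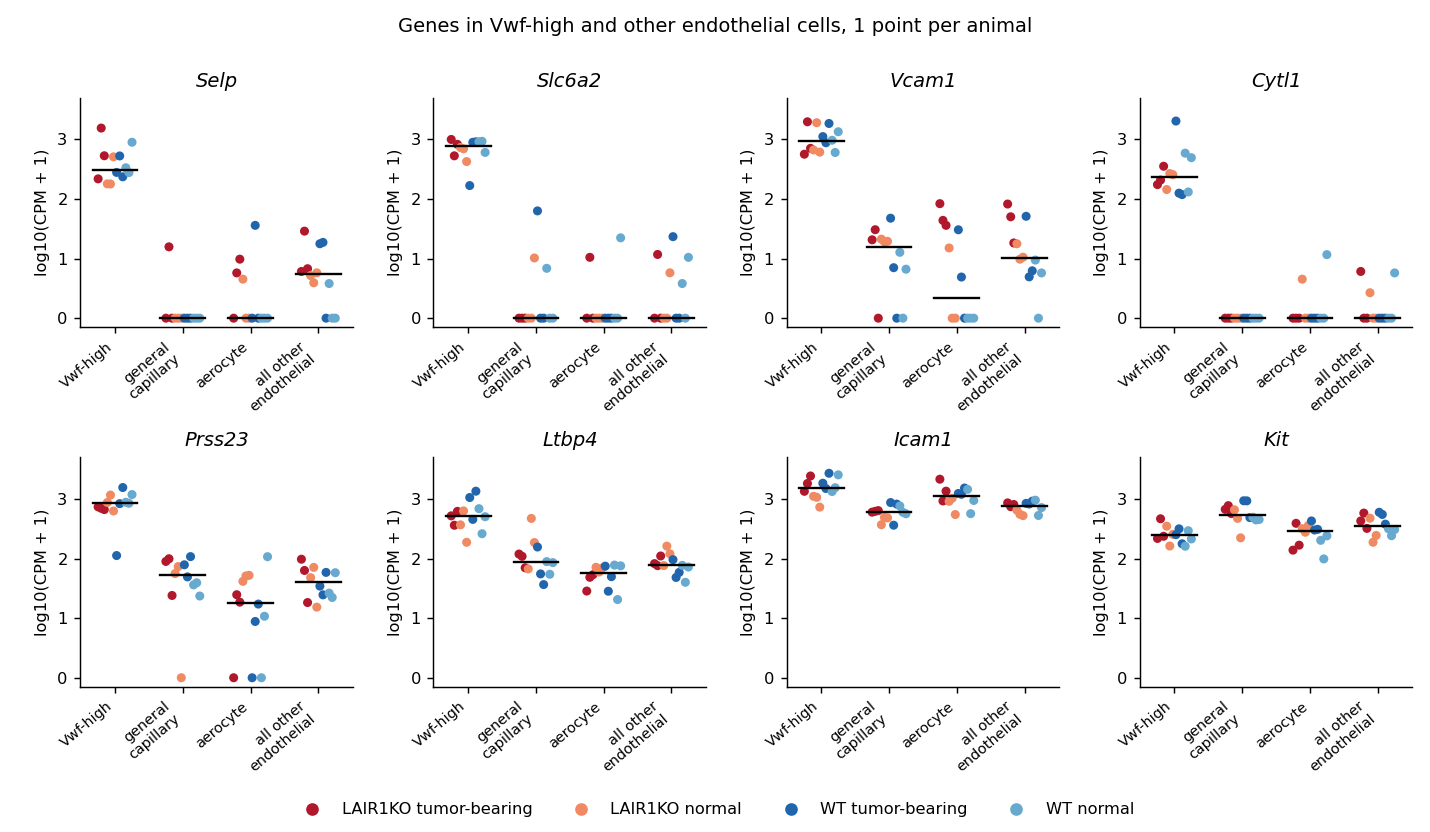
Level per animal (CPM, log axis) of genes in Vwf-high cells and, to their right, in general capillary cells, 12 animals each. Selp, Vcam1 and Slc6a2 lie at 167 CPM or more in every animal's Vwf-high cells and at 62.1 CPM or less in the general capillary cells.

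Venous genes rose with them. Slc6a2 had 167, 777 and 996 CPM in Vwf-high cells, against 0, 0 and 62.1 CPM in general capillary cells (log2 7.43 ± 0.38, adjusted p = 5.5e-13). Prss23 had 111, 840 and 1555 CPM in Vwf-high cells, against 0, 51.6 and 107 CPM (log2 3.97 ± 0.23, adjusted p = 4.8e-12). In both genes the groups of animals did not overlap. Cpe, carboxypeptidase E of secretory granules, rose by 4.85 log2 units and Car8, a carbonic anhydrase-related protein, by 1.62. Of 14 venous genes 7 were measured here, and 6 rose (median log2 4.85). Against all other endothelial cells 11 of 11 measured venous genes rose (median 2.90), beside 6.98% of all 3367 genes tested there. In both comparisons a venous gene could be measured through the Vwf-high sums alone. These counts are therefore a description and no test of venous identity. Of 16 arterial genes 11 were measured against general capillary cells, 1 rose (Cytl1) and 2 fell (the transcription factor Sox17, log2 −0.68, and Sema3g, −0.54), with a median of −0.01. Against all other endothelial cells 12 arterial genes were measured, 5 rose (Gja4, Cytl1, Mgp, Fbln5 and Edn1) and 0 fell (median 0.56), so the count depended on the cells they were set against. The venous and arterial lists were not tested against each other. Cytl1 had 117, 230 and 2031 CPM in Vwf-high cells and 0 UMIs in the general capillary cells of every animal. With the group floor set at 3 counts it was at least 190-fold higher (395 against 0 UMIs; adjusted p = 4.2e-09).

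Other genes named by size and p were higher in 12 of 12 animals. They were Adgrg6, an adhesion G protein-coupled receptor (log2 4.49 ± 0.27), Samd5, a protein with a sterile alpha motif (3.56 ± 0.24), Rnd1 (3.13), and Plac8 (2.87). The secreted proteins Fstl1 (2.47) and Ccn2, connective tissue growth factor (2.31), were among them too. Ptgs2 had 81.3, 460.4 and 1407 CPM in Vwf-high cells, against 18.1, 47.2 and 314 CPM in general capillary cells, and was higher in 11 of 12 animals (log2 2.82 ± 0.36, adjusted p = 4.5e-06).

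The promoters of Selp, Cytl1 and Icam1, which rose together in these cells, are shown as the 250 bases before the start of the gene, from RefSeq (GRCm38.p6). All 3 genes are transcribed from the plus strand. Capitals mark GGAA, the core of ETS factor sites, GATA, the core of GATA factor sites, and AGGTCA, a half-site of nuclear receptors such as COUP-TFII (Nr2f2), each on either strand. Selp lies on chromosome 1 (its promoter at chr1:164115014-164115263), Cytl1 on chromosome 5 (chr5:37735269-37735518) and Icam1 on chromosome 9 (chr9:21015690-21015939).
Selp: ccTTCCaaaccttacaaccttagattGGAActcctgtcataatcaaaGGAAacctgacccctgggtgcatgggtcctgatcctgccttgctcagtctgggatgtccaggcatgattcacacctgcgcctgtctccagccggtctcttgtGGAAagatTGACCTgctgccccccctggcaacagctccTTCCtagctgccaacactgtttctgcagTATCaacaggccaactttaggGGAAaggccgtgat
Cytl1: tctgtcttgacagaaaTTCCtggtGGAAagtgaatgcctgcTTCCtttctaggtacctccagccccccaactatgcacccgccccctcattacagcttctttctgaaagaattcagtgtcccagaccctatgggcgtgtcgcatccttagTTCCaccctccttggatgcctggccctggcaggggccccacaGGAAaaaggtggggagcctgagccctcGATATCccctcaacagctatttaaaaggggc
Icam1: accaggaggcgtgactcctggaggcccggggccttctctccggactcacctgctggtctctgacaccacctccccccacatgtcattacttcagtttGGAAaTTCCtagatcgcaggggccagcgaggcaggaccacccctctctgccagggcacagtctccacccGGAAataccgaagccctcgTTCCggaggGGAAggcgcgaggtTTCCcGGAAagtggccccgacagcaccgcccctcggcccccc
Selp held 6 GGAA, 1 GATA and 1 AGGTCA, Cytl1 5 GGAA and 2 GATA, which overlap in the palindrome GATATC, and Icam1 7 GGAA. The promoter of Adgrg6, which also rose and is not shown, held 1 GGAA, 0 GATA and 0 AGGTCA. Such matches are common: of 32851 promoters of this length 93.5% held GGAA, 53.6% GATA and 14.0% AGGTCA. They describe the letters and say nothing of binding.

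Genes of the vessel wall and of prostanoid synthesis were tested against all other endothelial cells, which include aerocytes. In that comparison 235 of 3367 genes were higher in Vwf-high cells (6.98%) and 210 were lower (6.24%). Ltbp4, which tethers latent TGF-beta to elastic fibres, had 187, 511 and 1349 CPM in Vwf-high cells, against 38.9, 75.6 and 161 CPM in other endothelial cells (log2 2.64 ± 0.21, adjusted p = 4.6e-09). The ranges did not overlap. The elastic fibre genes Fbln5 (log2 3.45) and Eln (1.73) and the proteoglycan Bgn (2.59) also rose, as did Mgp, an inhibitor of calcification (0.89). The basement membrane chains Col4a1 (−0.56) and Col4a2 (−0.68) and the matricellular Sparcl1 (−0.57) fell. Of 19 matrix genes 9 were measured, 5 rose and 3 fell (median 0.89). Of 15 genes of vascular tone 11 were measured. Ptgs2 (2.07), Ptgs1, the constitutive cyclooxygenase (1.59), Edn1, endothelin 1 (0.89), and Ece1, which activates it (0.69), rose. The endothelin receptor Ednrb fell (−0.92; it also marks the aerocytes in the other class). Against general capillary cells 9 genes of vascular tone were measured, and Ptgs2 and Ece1 rose while Npr3 fell. Ptgs1 and Edn1 were not among the genes called there.

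Some genes of Weibel-Palade bodies, the granules that store the protein by which the cells were chosen, were higher in Vwf-high cells. Of 19 such genes 12 were measured against other endothelial cells, 4 rose and 2 fell, with a median log2 difference of 0.01. Selp (5.91), S100a10, an annexin A2 partner in the release of the granules (0.77), Ece1 and Edn1 rose. Vamp8, a membrane fusion protein, fell (−0.69). Igfbp7, a secreted protein stored in the granules, fell against other endothelial cells (log2 −1.13) but rose against general capillary cells (0.71), so its direction depended on the cells it was set against. Against general capillary cells 10 genes of the list were measured, and Selp, S100a10, Ece1, Igfbp7 and Anxa2 rose while Vamp8 fell (median 0.33). In haemostasis, Thbd, thrombomodulin, rose slightly (968, 1665 and 2103 CPM in Vwf-high against 736, 1163 and 1665 CPM in other endothelial cells; log2 0.40 ± 0.09, adjusted p = 0.0052). Thbs1, thrombospondin 1, fell (log2 −1.60), and 5 more of the 7 measured of 14 genes did not pass the test. Against general capillary cells 5 genes of the haemostasis list were measured, and only Thbs1 was called, as a fall.

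Signalling genes changed in part against all other endothelial cells, which include aerocytes. Of 15 genes of VEGF and angiopoietin signalling 11 were measured. Vegfc, a growth factor of lymphatic vessels (log2 2.90), Nrp2, its co-receptor (2.70), Flt1 (0.57) and Tek (0.52) rose, and the main VEGF receptor Kdr (−0.68) and Apln (−1.12) fell. Notch1 (0.44) and the ligand Dll1 (1.01) rose among 7 measured Notch genes, and Eng alone (0.34) among 12 of BMP and TGF-beta signalling. Against general capillary cells Aplnr, Flt1, Nrp1 and Vegfa of the VEGF list were called (2 rose and 2 fell). Dll1 alone was called there among Notch genes, and Tgfbr2, Tmem100 and Bmp6 among those of BMP and TGF-beta (1 rose and 2 fell). Notch1, Eng, Tek and Kdr were not among the genes called against general capillary cells. Lyve1, a hyaluronan receptor of lymphatic and some other endothelium, had 553, 890 and 1290 CPM in Vwf-high cells, against 166, 316 and 577 CPM in other endothelial cells (log2 1.54 ± 0.13, adjusted p = 1.6e-08). It was the 1 of 2 measured genes of the 8 on the lymphatic list that rose. Among genes on none of these lists, Ackr3, a scavenger of the chemokine CXCL12 (2.12), Csrp2, a LIM domain protein (2.01), and Il6st, the shared receptor chain of the interleukin 6 family (1.35), rose in 12 of 12 animals. Of 7 measured genes of inflammatory activation, Icam1 (1.07), Lrg1 (1.10), Nfkbia (0.79) and Socs3 (0.72) rose and Cxcl2 fell.

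Capillary genes were lower, though far from absent. Sema3c, a semaphorin of general capillary cells, had 322.7, 852 and 1252 CPM in Vwf-high cells, against 933, 1980.2 and 2779 CPM in general capillary cells (log2 −1.21 ± 0.12, adjusted p = 1.1e-07). Kit had 160.0, 243 and 464 CPM, against 222, 530.1 and 932 CPM in general capillary cells (log2 −1.17 ± 0.14, adjusted p = 9.8e-07). Each was lower in 11 of 12 animals, with overlapping ranges. Glp1r, the receptor of glucagon-like peptide 1, fell by 1.16 on the log2 scale and was lower in 12 of 12. Of 10 general capillary genes 9 were measured, and 5 fell against general capillary cells (median −0.72). Against all other endothelial cells 8 of 10 measured aerocyte genes fell (median −0.96), while Plvap, Cd93, Tek and Hmcn1 of the general capillary list rose. Of the 10 pan-endothelial genes 0 passed the test against general capillary cells (median 0.05). MHC class II genes were lower too, and the part of transcripts of other cells, given below, in these falls was not tested. Cd74, the invariant chain, had 73.6, 518 and 1304 CPM in Vwf-high cells, against 453, 1056 and 2196 CPM in general capillary cells (log2 −1.20), and H2-Aa, H2-Ab1 and H2-Eb1 fell as well, 4 of 9 measured genes of antigen presentation.

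Among the genes that fell were transcripts of other cells. Against general capillary cells these included Sftpc, the surfactant protein of alveolar type 2 cells (64.5, 295 and 519.8 CPM in Vwf-high against 199, 8444 and 54328 CPM in general capillary cells; log2 −5.62), Lyz2 (−4.33), a lysozyme of phagocytes and type 2 cells, and Cldn18 (−2.01), a tight junction protein of alveolar epithelium. The list of 6 epithelial genes summed to 29.5 UMIs per 10000 in Vwf-high and 235 in other endothelial cells, 6 neutrophil genes to 52.5 and 79.3, and 8 macrophage genes to 6.26 and 22.8. The part of these transcripts in the falls was not tested. Falls of genes outside these lists included Sox11, a transcription factor (log2 −1.66), Scn7a, a sodium channel subunit (−1.50), Gpx3, a secreted glutathione peroxidase (−1.48), Gsn, gelsolin (−1.41), AU020206, a long noncoding RNA (−1.02), and Rasgrp3, an activator of Ras (−1.0). Against other endothelial cells, Atp8a1 (−1.47), Emp2 (−1.20) and Acsl4 (−1.53) fell too. Setting the threshold at 10 Vwf UMIs, a choice made after seeing the data, moved Kit to −2.74 and the count of changed genes against general capillary cells to 398.

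The share of Vwf-high cells among endothelial cells was compared across the groups. By animal it was 8.96, 10.3 and 15.6% in LAIR1KO tumor-bearing, 21.4, 16.9 and 13.9% in LAIR1KO normal, 10.3, 16.6 and 17.2% in WT tumor-bearing and 23.1, 17.5 and 15.3% in WT normal lung. The ranges overlapped between tumor-bearing and normal lung in both genotypes. The mean was 11.6% ± 3.52 against 17.4% ± 3.73 in LAIR1KO (SD, n = 3 each; difference −5.79 percentage points, exact permutation test, two-sided, p = 0.2). In WT it was 14.7% ± 3.80 against 18.6% ± 4.01 (−3.92, exact p = 0.4). LAIR1KO and WT differed by −3.08 points in tumor-bearing (exact p = 0.2) and −1.21 points in normal lung (exact p = 0.6). With 3 animals a group this test cannot give a p below 0.1. Over whole libraries, hashtag or not, the share was 14.5% in LAIR1KO tumor-bearing (95% exact binomial interval 11.5 to 17.9), 16.9% in LAIR1KO normal (14.2 to 19.9), 18.0% in WT tumor-bearing (14.7 to 21.7) and 17.9% in WT normal lung (14.1 to 22.1). These intervals cover counting error only. Thinning every endothelial cell to 2000 UMIs left out 126, 71, 121 and 33 shallower cells in the order LAIR1KO tumor-bearing, LAIR1KO normal, WT tumor-bearing and WT normal. The library shares were then 12.3, 7.77, 14.3 and 11.4% in that order, and both tumor differences between the means of animals changed sign. No direction of the share is therefore given.

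**Figure D4:**
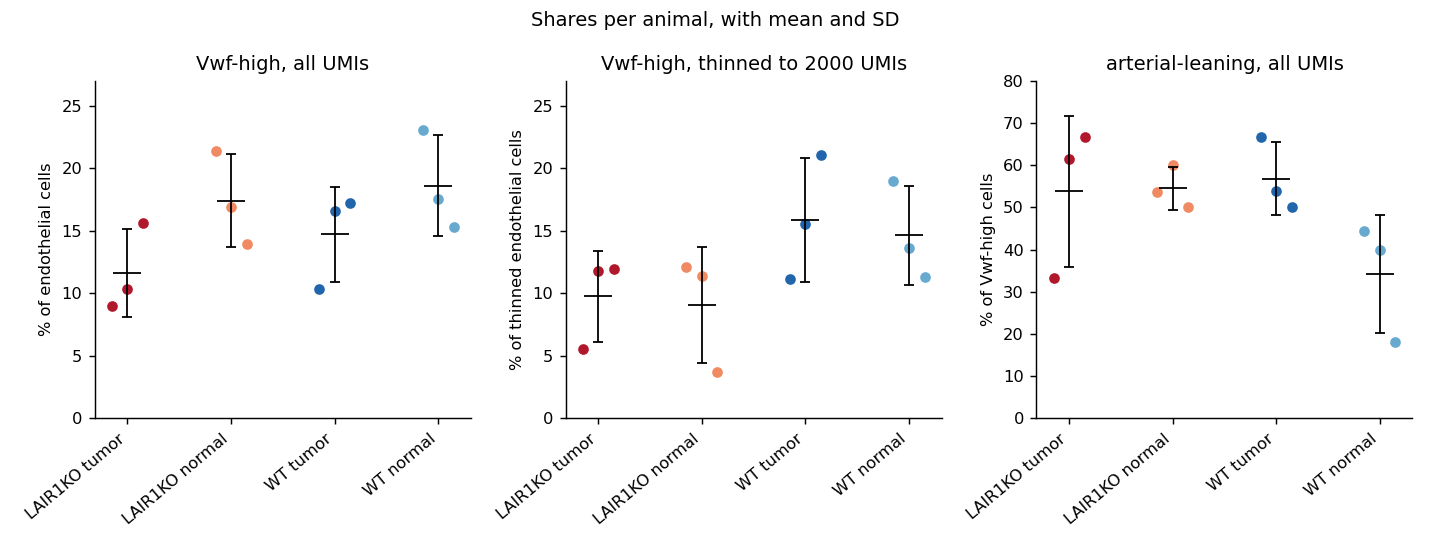
Share of Vwf-high cells among endothelial cells and share of arterial-leaning cells among Vwf-high cells (percent), per animal and group, with the mean of 3 animals. The first share overlaps between all groups, while the arterial-leaning share of WT normal animals lies at or below 44.4%.

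The largest differences in the make-up of the Vwf-high cells were those against WT normal lung. With 3 animals a group none could reach a p under 0.05. Arterial-leaning refers to the score above, whose arterial side also holds many cells with capillary genes. Arterial-leaning cells were 33.3, 61.5 and 66.7% of Vwf-high cells in LAIR1KO tumor-bearing, 53.6, 60 and 50% in LAIR1KO normal, 66.7, 53.8 and 50% in WT tumor-bearing and 44.4, 40 and 18.2% in WT normal animals. WT tumor-bearing animals averaged 56.8% ± 8.73 and WT normal ones 34.2% ± 14.1, a difference of 22.6 points with no overlap (SD, n = 3 each; exact permutation p = 0.1, the smallest possible). LAIR1KO normal animals averaged 54.5% ± 5.07, which was 20.3 points above WT normal (exact p = 0.1). In LAIR1KO the tumor difference was −0.68 points (exact p = 1) and between the tumor-bearing genotypes it was −2.99 (exact p = 0.9). The animals of WT tumor-bearing and LAIR1KO normal lung were female by transcript and those of WT normal lung male, so both larger differences cannot be told apart from sex. After thinning to 2000 UMIs the arterial-leaning share, in animals with at least 5 Vwf-high cells left, was 54.5 and 50% in LAIR1KO tumor-bearing, 37.9 and 40% in LAIR1KO normal, 50 and 50% in WT tumor-bearing and 27.3, 16.7 and 0% in WT normal animals, the last from 7 cells. WT normal animals remained the lowest, while the tumor difference in LAIR1KO turned positive. With 0.1 as the smallest possible p, the 8 tests of shares could not fall under 0.05 whatever the values.

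The targeted gene was examined before the comparison of expression. Lair1 (chromosome 7, 4003402 to 4063204, GRCm38, minus strand) was counted 12 times in 6 of the 349 cells, all of them from WT lungs, so it is hardly measured in this endothelium. After assignment to animals it stood at 0 CPM in all LAIR1KO animals and at 7.31 CPM, from 1 UMI, in 1 of 6 WT animals. Vwf, which chose the cells, is given as a description: 2816, 2735 and 3416 CPM in LAIR1KO tumor-bearing, 2647, 2751 and 1560.0 CPM in LAIR1KO normal, 1975, 3758 and 4195 CPM in WT tumor-bearing and 3286, 2244 and 3354 CPM in WT normal animals. All 4 groups overlapped.

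Few genes of Vwf-high cells changed with the tumor or the genotype. Of 1819 genes, 1 passed for the tumor in LAIR1KO (0.055%), 5 for the tumor in WT (0.275%), 0 for the genotype in tumor-bearing lung (0%) and 2 for the genotype in normal lung (0.11%). The interaction of tumor and genotype called 2 (0.11%). At an unadjusted p under 0.05 there were 125, 118, 100, 92 and 135 genes in that order, and DESeq2 called 1 gene for the genotype in tumor-bearing lung. The 2 genes called for the genotype in normal lung were Xist and Ddx3y, and Xist was also among the 5 for the tumor in WT and the 2 for the interaction, which the sex difference named above touches.

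Hspb1, a small heat shock protein of actin and stress responses, was called for the interaction of tumor and genotype, beside Xist. The interaction includes the WT normal animals, male by transcript, so a dependence on genotype cannot be told apart from sex. Hspb1 lies on chromosome 5 (135887919 to 135889563, GRCm38, plus strand). It had 6108, 3961 and 2915 CPM in LAIR1KO tumor-bearing, 2863, 3227 and 1730 CPM in LAIR1KO normal, 1335, 1594 and 1966 CPM in WT tumor-bearing and 4459, 3919 and 5310 CPM in WT normal animals. WT tumor-bearing animals lay below all WT normal ones, while the LAIR1KO groups overlapped. The log2 tumor difference was −1.48 ± 0.26 in WT (SE; adjusted p = 0.015) and 0.63 ± 0.25 in LAIR1KO (adjusted p = 0.66). The difference between these was 2.11 ± 0.36 (adjusted p = 0.011). In other endothelial cells of the same animals the level was 2392, 3871 and 1622 CPM in LAIR1KO tumor-bearing, 2600, 2098 and 1812 CPM in LAIR1KO normal, 1808, 2513 and 2613 CPM in WT tumor-bearing and 2592, 1738 and 2207 CPM in WT normal lung, with no separation. The tumor difference of Vwf-high minus that of other endothelial cells was −1.49 ± 0.29 in WT, which did not pass over 3367 genes (adjusted p = 0.15). The call in WT was lost without tumor-bearing animal 1 (log2 −1.39, adjusted p = 0.10) or 2 (−1.45, 0.093) or normal animal 3 (−1.36, 0.17). The interaction call was lost without LAIR1KO tumor-bearing animal 1 (adjusted p = 0.051), WT tumor-bearing animal 2 (0.074) or WT normal animal 3 (0.065), and also with at least 10 cells per animal (0.053) or with a Vwf threshold of 5 UMIs (0.086). When hashtags were assigned by a 60% rule the difference was 1.0 (adjusted p = 0.70).

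**Figure D5:**
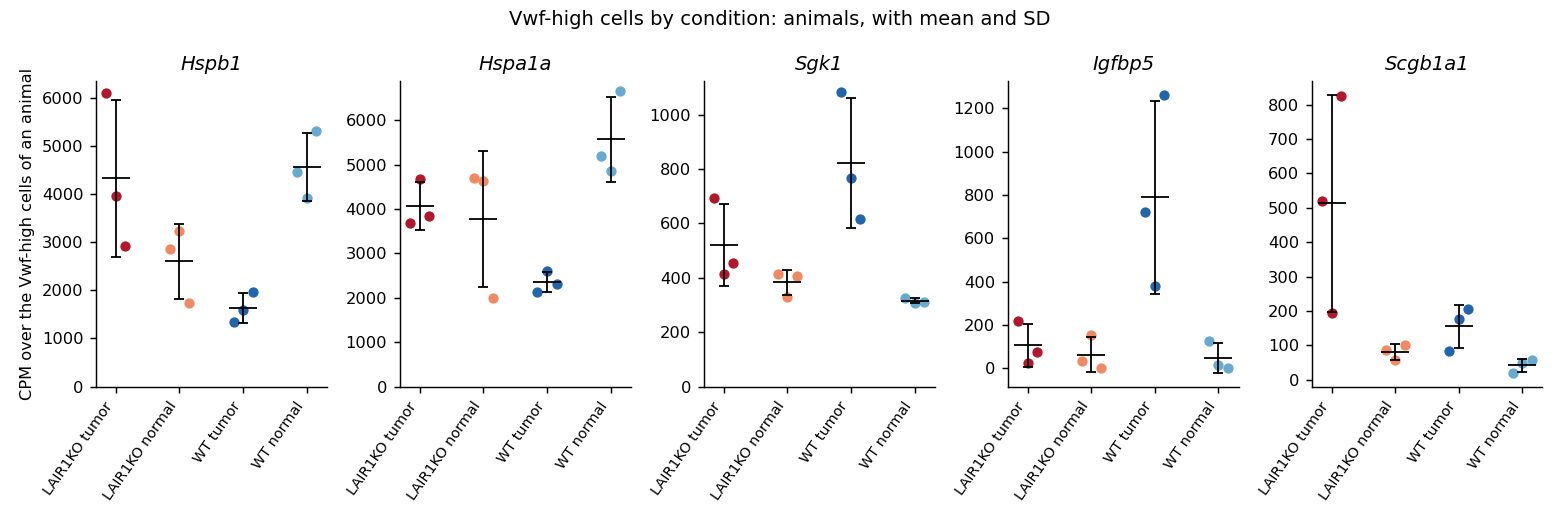
Level per animal (CPM) in Vwf-high cells of the 4 groups, with the mean of 3 animals, for genes named in the condition comparisons. Hspb1 lies between 1335 and 1966 CPM in WT tumor-bearing and between 3919 and 5310 CPM in WT normal animals.

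Hspa1a, an inducible chaperone, moved with Hspb1 in WT. It had 2142, 2596 and 2318 CPM in WT tumor-bearing against 5198, 4862 and 6652 CPM in WT normal animals (log2 −1.22 ± 0.25, adjusted p = 0.048). The animals did not overlap, but the call was lost when any 1 of the 6 animals was left out. Of 12 immediate early and heat shock genes, all measured, these 2 fell and 0 rose with the tumor in WT (median log2 −0.34, against 0.02 over all genes). Sgk1, a kinase that glucocorticoids induce, had 1085, 768 and 616 CPM in WT tumor-bearing against 327, 309 and 313 CPM in WT normal animals (log2 1.38 ± 0.27, adjusted p = 0.038). Its call was lost in 5 of the 6 fits without 1 animal (log2 1.15 to 1.52), held without WT tumor-bearing animal 3, and it was the 1 of 6 measured glucocorticoid targets that passed. Igfbp5, a binding protein of insulin-like growth factors, had 723, 380.2 and 1261 CPM in WT tumor-bearing against 127, 16.3 and 0 CPM in WT normal animals (log2 3.55 ± 0.74, adjusted p = 0.048). DESeq2 did not call it (adjusted p = 0.50). Without 1 animal its difference ran from 3.02 to 6.57, the highest without WT normal animal 1, and the call was lost in 4 of 6 fits, those without WT tumor-bearing animals 1 and 3 and WT normal animals 2 and 3. Of Hspb1, Hspa1a, Sgk1 and Igfbp5, 0 passed under the 60% rule for hashtags.

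In LAIR1KO the gene that rose with the tumor was Scgb1a1, a secretory protein of airway club cells and not of endothelium. It had 520, 194 and 825 CPM in LAIR1KO tumor-bearing against 85.0, 56.5 and 102 CPM in LAIR1KO normal animals (log2 2.61 ± 0.44, adjusted p = 0.020). In other endothelial cells it had 335, 309 and 331 CPM in LAIR1KO tumor-bearing against 185, 85261 and 253 CPM in LAIR1KO normal animals. A UMI of Scgb1a1 was found in 53.0% of Vwf-high and 50.2% of other endothelial cells. The part of free RNA or of attached epithelial cells was not tested. The call ended with at least 10 cells per animal (adjusted p = 0.16), with a Vwf threshold of 5 UMIs (1.0), with the 60% rule for hashtags (0.084) and with only the compared groups in the fit (0.092). It also ended in 5 of the 6 fits without 1 animal and held without LAIR1KO tumor-bearing animal 2, and without tumor-bearing animal 3 the difference was 1.83 (adjusted p = 1.0).

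Genes of the vessel identity gave values but no calls. Selp had 217, 1548 and 530 CPM in LAIR1KO tumor-bearing, 178, 177 and 509 CPM in LAIR1KO normal, 278, 526 and 235 CPM in WT tumor-bearing and 333, 276 and 894 CPM in WT normal animals. Tumor-bearing against normal LAIR1KO lung came to 1.67 log2 units (adjusted p = 0.61), and the interaction to 2.06 (adjusted p = 0.54). Slc6a2 had 996, 529 and 825 CPM in LAIR1KO tumor-bearing, 730, 694 and 424 CPM in LAIR1KO normal, 167, 892 and 909 CPM in WT tumor-bearing and 913, 927 and 604 CPM in WT normal animals, overlapping throughout. Gja5 was at 0, 77.4 and 103 CPM in LAIR1KO tumor-bearing, 47.7, 48.4 and 0 CPM in LAIR1KO normal, 584, 65.8 and 205 CPM in WT tumor-bearing and 180, 32.5 and 0 CPM in WT normal animals. Of the 13 measured arterial genes 0 passed for the tumor in WT, where 13 had a positive log2 difference (median 0.97). Of all 1819 genes tested there, 939 were positive. The arterial-leaning score drew on genes of the same list, so the larger share of arterial-leaning cells in WT tumor-bearing lung is no separate observation. The tumor in WT also cannot be told apart from sex. Of the 13 measured venous genes 0 passed in any comparison, and of 10 adhesion genes 0 passed either. Pfkfb3, an activator of glycolysis, had 173, 168 and 177 CPM in LAIR1KO tumor-bearing against 18.7, 16.1 and 50.9 CPM in LAIR1KO normal animals, yet did not pass (log2 2.85, adjusted p = 0.39). Osmr, the oncostatin M receptor, had the same adjusted p there (log2 1.57). The share of genes whose groups of 3 did not overlap was 12.8% for the tumor in LAIR1KO, 12.1% for the tumor in WT, 10.6% for the genotype in tumor-bearing and 11.2% for the genotype in normal lung.

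Whether the tumor acted on Vwf-high cells otherwise than on other endothelial cells was tested over 3367 genes. The difference of the tumor differences called 0 genes in LAIR1KO (0%) and 0 in WT (0%) by edgeR and by DESeq2, with 146 and 207 genes at an unadjusted p under 0.05 by edgeR. With 6 to 56 cells per animal the precision was low.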

How the data were processed

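Single lung cells of 4 groups, each 1 library of 3 hashtagged animals, were profiled with a 10x Genomics 3' kit, per the labels' protocols. The authors deposited counts: whole UMIs per gene and hashtag antibody for each barcode, with no normalization. The submitters' processing notes name Cell Ranger 4.0.0, STAR, mm10, Seurat 3.2.0 and R 4.0.0, with no role or order. Aligner settings are not given in the sources used here.

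Barcodes under 300 genes or over 10% mitochondrial UMIs were dropped. Hashtags were assigned per library with HTODemux (Seurat 5.3.0, quantile 0.99), and cells with several hashtags or none entered no comparison between animals. Scrublet (scanpy 1.11.5, Python 3.11.15) marked doublets, which stayed in except in 1 alternative. Sub-clusters used 500 variable genes, 10 components, 15 neighbours and resolution 0.5. Their names are rebuilt here, so differences from other accounts may come from that.

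For each animal, counts were added up over the cells of a class (5 cells or more). These sums were compared by edgeR 4.0.16 (R 4.3.3; quasi-likelihood F test, TMM, filterByExpr), with Benjamini-Hochberg adjustment over all genes tested and a threshold of 0.05. All groups shared 1 estimate of the spread. Comparisons of cell classes had the animal as a block, because both classes come from the same animals. CPM are a gene's UMIs per 1000000 UMIs of the animal's class. DESeq2 1.42.0 was an alternative. Shares were tested with exact permutation tests over animals. The test was tested on simulated counts with known changes.

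The members and gene lists were chosen with earlier results of these data known, and the lists overlap with the genes that define these types. Class comparisons name, by smallest p, 12 genes per direction whose change was 2-fold or more, whose mean reached 50 CPM in the higher class and whose direction held in 80% of animals, leaving out gene models, ribosomal, mitochondrial, antigen receptor and sex-linked genes. Condition comparisons name the genes past the threshold, or those with the smallest p where fewer passed. Vwf, Cdh5, Lair1, Selp, Gja5 and Slc6a2 are given always. Promoter sequences came from RefSeq (6 of 9 genes looked up were found) and gene positions from GRCm38. The sex of animals was read from transcripts.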

Additional observations from a re-analysis of the deposited data

Results flagged for a closer look

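The tumor difference of Hspb1 in Vwf-high cells was not the same in both genotypes: LAIR1KO minus WT came to 2.11 log2 units by the interaction test (adjusted p = 0.011, edgeR). WT tumor-bearing animals were lower than WT normal ones, and LAIR1KO tumor-bearing animals averaged 4328 CPM against 2606 CPM in LAIR1KO normal ones, with overlap. Sex cannot be told apart from the tumor in WT, nor from the genotype in this interaction. The interaction call was also lost under several alternatives given above.

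Xist gave −10.19 for the same difference, a fitted value that depends on the prior count, since the WT normal animals had 0 UMIs. They alone were male by transcript.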

How the results depend on the processing

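Counts of genes in the condition comparisons were small and moved easily. The tumor in LAIR1KO called 1 gene, against 33 with no filter on low counts and 0 with at least 10 cells per animal, with the 60% rule for hashtags, with a Vwf threshold of 5 UMIs or with only the compared groups in the fit (0 to 3 without 1 animal). The tumor in WT called 5, against 2 with upper quartile factors, 39 with no filter, 3 with at least 10 cells, 2 with the 60% rule and 2 with the Vwf threshold of 5 (1 to 4 without 1 animal). The genotype in tumor-bearing lung called 0, against 1 by DESeq2, 21 with no filter, 1 with at least 10 cells and 1 with the Vwf threshold of 5 (0 to 2). The genotype in normal lung called 2, against 18 with no filter and 1 with the Vwf threshold of 5 (1 to 3), and the interaction 2, against 27 with no filter, 1 with the 60% rule and 1 with the Vwf threshold of 5 (1 to 3). Leaving out the sub-cluster led by neutrophil genes, a choice made after seeing the data, left the counts at 1, 5, 0, 2 and 2. With no filter the difference of the tumor differences called 23 genes in LAIR1KO and 33 in WT (0 to 2 without 1 animal in each). The cause of these moves was not tested.

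The class comparisons held better. With no filter 1245 genes were called against other endothelial cells (317 higher and 928 lower in Vwf-high cells) and 677 against general capillary cells (245 and 432). A Vwf threshold of 10 UMIs, chosen after seeing the data, gave 398 against general capillary cells. Without 1 animal the counts ran from 356 to 438 and from 210 to 278. The genes named in these comparisons gave 48 results, with some genes named in both comparisons. All 48 kept their direction and their call in the 927 values that the alternatives gave. An alternative in which a gene failed the filter on low counts gave no value for it. Genes named for conditions gave 35 results, with some genes named in several contrasts. Of their 522 values 49 lost a call and 16 gained one.

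Without the replicate block for the animal, the class comparisons called 411 genes against other endothelial cells and 232 against general capillary cells, against 445 and 263 with it. The difference of the tumor differences called 0 genes in both genotypes with and without the block.

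The share of Vwf-high cells changed sign when cells were thinned to 2000 UMIs (0.724 points for the tumor in LAIR1KO and 1.26 in WT), and for the genotype in normal lung with all kept cells as the denominator (1.42). Leaving out 1 animal gave −7.79 to −3.82 for the tumor in LAIR1KO, −5.60 to −1.70 for the tumor in WT, −5.27 to −1.74 for the genotype in tumor-bearing lung and −3.18 to 1.02 for the genotype in normal lung, above 0 without LAIR1KO normal animal 3 (0.529) or WT normal animal 1 (1.02). The arterial-leaning share changed sign for the tumor in LAIR1KO when thinned (13.3), with the Vwf threshold of 5 (9.71), without LAIR1KO tumor-bearing animal 1 (9.58) or without LAIR1KO normal animal 2 (2.06). For the genotype in tumor-bearing lung it did so when thinned (2.27), with the Vwf threshold of 5 (2.27), without LAIR1KO tumor-bearing animal 1 (7.26) or without WT tumor-bearing animal 1 (1.92). Without 1 animal it ran from −7.09 to 9.58 for the tumor in LAIR1KO, 14.6 to 27.8 for the tumor in WT, −9.40 to 7.26 for the genotype in tumor-bearing lung and 12.3 to 25.4 for the genotype in normal lung. The cause was not tested. Few cells per animal limit what could be seen.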
